A study of Mus musculus with 10 samples.

Results

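Chromosomes 11 and 19 are the mouse autosomes whose open chromatin sites held the most protein footprints per site in 3T3-L1 cells taken 4 h into adipogenic differentiation. All DNase I hypersensitive (DHS) sites on these chromosomes were taken, 6074 on chromosome 11 and 3605 on chromosome 19, with the 22957 and 13408 footprints inside them. The 9679 sites are 7.50% of the 129028 sites in the list, and their 36365 footprints are 11.1% of the 329076 footprints. The chromosomes were chosen by footprints per site, 3.78 on chromosome 11 and 3.72 on chromosome 19. Chromosome 17 came next with 3.07, and chromosomes 14 (1.90) and 3 (1.97), chosen as the comparison, were the lowest autosomes. These values chose the chromosomes, so every contrast below is a description with no test.

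3T3-L1 is an established mouse preadipocyte line, whose fibroblast-like cells turn into fat cells when induced. Induction was begun after confluence with the glucocorticoid dexamethasone at 1 µM, the cyclic AMP-raising inhibitor 3-isobutyl-1-methylxanthine at 0.5 mM, insulin at 1 µg/mL, and serum (FCS) at 10%. The 2 DNase samples are separate sequencing runs, of which 1 was paired-end, of the same library, and the authors joined them with an older run of it before they called sites and footprints. The lists therefore hold 1 library with no replicates and no read counts, the depth behind each site is unknown, and the intervals given cover counting error only. The 8 RNA samples, in 4 groups of 2 (control shRNA or shRNA against the transcription factor C/EBPβ, at 0 h and at 4 h), were not analysed here.

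DNase I cuts DNA that is not wrapped tightly in nucleosomes, so a stretch with many cuts marks an accessible site, usually a promoter or an enhancer. A footprint is a short stretch inside a site that is cut less than its flanks, as occurs where a bound protein shields the DNA. Active and silent chromatin alternate along mammalian chromosomes in domains that can be megabases long, and chromosomes differ in their share of each. Chromosome 11 is known as a gene-rich mouse chromosome. It carries Trp53 (the p53 tumour suppressor), Col1a1 (a collagen of the fibroblast matrix), Fasn (fatty acid synthase) and Stat5a and Stat5b (transcription factors with a role in fat cell formation). Chromosome 19 is the shortest mouse autosome, and carries Scd1 (a fatty acid desaturase), Rela (a subunit of NF-κB) and the noncoding RNA genes Malat1 and Neat1. Gene positions on mm9 were not used here, so no gene was matched to a site, and regions are named by position.

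Open chromatin on both chromosomes carried footprints in most sites. A footprint was present in 3653 sites of chromosome 11, 60.1% (95% Wilson interval 58.9 to 61.4%), and in 2048 sites of chromosome 19, 56.8% (55.2 to 58.4%). Over all sites of the genome the share was 45.4%. It was 37.1% on chromosome 14 (35.9 to 38.4%) and 38.7% on chromosome 3 (37.6 to 39.8%). The chromosomes were chosen by footprints per site, which favours a gap between these shares, so the intervals do not test it. The intervals also treat sites as independent, which neighbouring sites were not shown to be. Sites with many footprints made up most of the footprint number. On chromosome 11, 753 sites (12.4%) held 10 or more footprints, 163 of them 20 or more. On chromosome 19 there were 440 such sites (12.2%), 96 of them with 20 or more. Sites with 10 or more footprints were 5.78% of sites on chromosome 14 and 5.70% on chromosome 3. The median of the 19 autosomes was 8.08%, and the highest share outside the pair was 9.92%, on chromosome 17. Sites with 20 or more were 2.68% and 2.66% on chromosomes 11 and 19, against 0.867% and 0.876% on chromosomes 14 and 3. Among sites with at least 1 footprint, the mean number was 6.28 on chromosome 11 and 6.55 on chromosome 19, against 5.13 on chromosome 14 and 5.09 on chromosome 3.

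The sites themselves were wide. The median width was 608.5 bp on chromosome 11 (interquartile range 441 to 823 bp), the widest of the 19 autosomes, and 575 bp on chromosome 19 (407 to 773 bp), where the autosomal median was 534 bp. The median was 497 bp on chromosome 14, the lowest autosomal value and the same as on chromosome 16, and 509 bp on chromosome 3. Sites of 1000 bp or more were 15.8% of the sites on chromosome 11 and 13.5% on chromosome 19, against 9.67% and 10.1% on chromosomes 14 and 3. Width alone did not set chromosome 19 apart. Chromosome 9 had a median of 576 bp, and chromosomes 17 (14.2%) and 7 (13.7%) had larger shares of sites of 1000 bp or more. The 2 chromosomes differed in the number of sites. Chromosome 11 had 51.1 sites per Mb, eighth among the autosomes and close to their median of 49.8, whereas chromosome 19 with 61.8 was second.

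Since wide sites hold more footprints than narrow ones, the chromosomes were compared at equal width. Each site was placed in 1 of 50 width classes of equal number, and the genome-wide mean of its class was taken as its predicted number of footprints. The widest of these classes has no upper bound, and every site in it had the same prediction of 20.1 footprints. Ratios of regions with very wide sites are therefore only partly matched on width. Chromosome 19 held 13408 footprints where its site widths predicted 10663, a ratio of 1.26 and the highest of any autosome. Chromosome 11 held 22957 where 20082 were predicted, a ratio of 1.14 and the second highest. Over the 19 autosomes the ratio was 1.01 ± 0.108 (SD). The largest value outside the pair was 1.12, on chromosome 8, so chromosome 11 lay just above the remaining autosomes and chromosome 19 farther above them. Chromosomes 14 and 3 lay at 0.866 and 0.847. By footprints per site the order of the pair was the other way round, because sites on chromosome 11 were wider.

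Direct matching on width, with both chromosomes of a pair weighted to the widths of the pair together, gave the same order. Sites of chromosome 11 held 3.19 footprints on average against 2.42 on chromosome 14, a ratio of 1.32, and 3.17 against 2.35 on chromosome 3, a ratio of 1.35. Sites of chromosome 19 held 3.16 against 2.17 on chromosome 14 (ratio 1.46) and 3.20 against 2.15 on chromosome 3 (ratio 1.49). Without matching, these 4 ratios lay between 1.89 and 1.99. Matched on width, footprinted sites as a share of all sites were 10.8 and 10.3 percentage points higher on chromosome 11 than on chromosomes 14 and 3, and 11.8 and 11.3 points higher on chromosome 19. Among sites with at least 1 footprint, matching left ratios of 1.17 and 1.21 for chromosome 11 and of 1.28 and 1.33 for chromosome 19. The pair thus had more sites with a footprint and also more footprints per footprinted site.

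**Figure D1:**
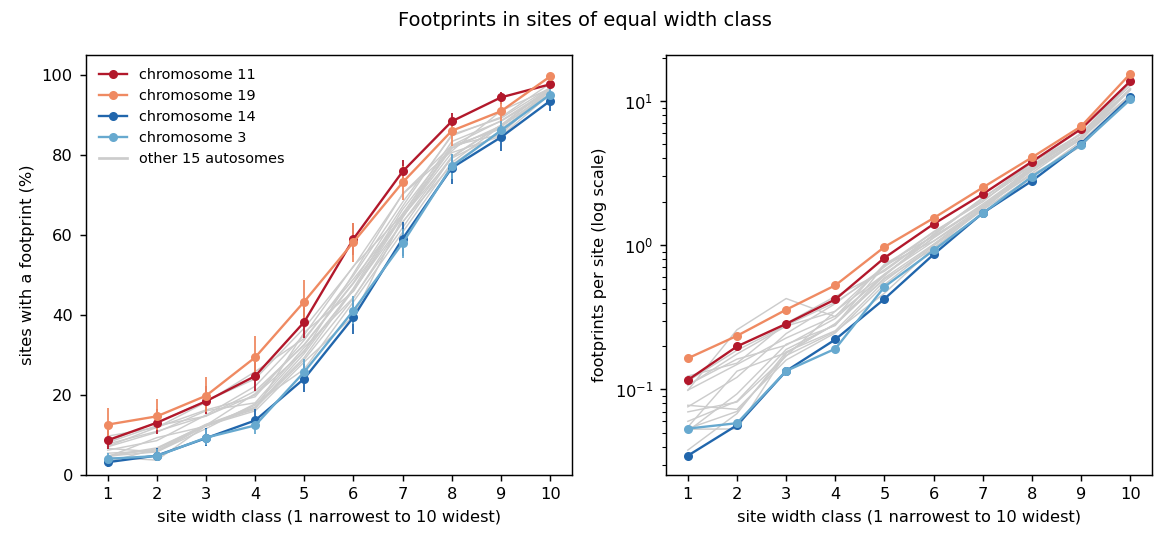
Footprinted sites as a share of all sites (left, with 95% Wilson intervals) and footprints per site (right, log axis) in 10 width classes of equal number, from the narrowest to the widest, for chromosomes 11, 19, 14 and 3 and, in grey, the other 15 autosomes. Chromosome 19 or 11 is at the top of the left panel in 10 of 10 classes, and chromosomes 14 and 3 lie at or near the bottom.

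The difference was present at every width and was relatively largest in narrow sites. Among the narrowest 20% of sites, those of 251 to 339 bp, 10.9% of sites on chromosome 11 and 13.6% on chromosome 19 had a footprint, against 3.95% on chromosome 14 and 4.33% on chromosome 3. In the middle quintile (470 to 599 bp) the shares were 48.8% and 51.3% against 31.1% and 33.2%. In the widest quintile (793 to 13152 bp), where most sites had a footprint on every chromosome, they were 95.9% and 95.3% against 88.7% and 90.5%. There the number per site still differed, at 10.04 on chromosome 11 and 11.2 on chromosome 19 against 7.73 on chromosome 14 and 7.61 on chromosome 3. That class has no upper bound, so widths in it need not match between chromosomes. With sites under 1500 bp alone, the ratio to prediction was 1.14 for chromosome 11 and 1.26 for chromosome 19. In 10 finer width classes, chromosome 19 had the most footprints per site of the 19 autosomes in 8, and chromosome 11 had a rank of 2 to 4 in all 10.

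Taken over all site widths, the footprints of the pair were a little shorter and more strongly scored than those of chromosomes 14 and 3. The score is the authors' own value per footprint. It is always below 0 and has no stated scale, and more negative values were read as stronger. Its median was -4.44 on chromosome 11 and -4.49 on chromosome 19, the latter the most negative of the autosomes, against -4.33 on chromosome 14 and -4.31 on chromosome 3. Chromosome 17, at -4.47, was also more negative than chromosome 11. The median footprint width was 20 bp on both chromosomes of the pair, as on chromosomes 5, 8 and 10, and 21 bp on chromosomes 14 and 3. Within the widest quintile of sites the median score was -4.62 and -4.70 on chromosomes 11 and 19, against -4.50 and -4.45 on chromosomes 14 and 3. The median footprint width there was 19 bp on chromosomes 11, 19 and 14 and 20 bp on chromosome 3. In the middle quintile the scores hardly differed, at -3.96 and -4.01 on chromosomes 11 and 19 against -3.97 and -3.98 on chromosomes 14 and 3. The part of read depth in these differences and in the number of footprints was not tested, as no depth accompanies the lists. The spacing of footprints inside a site was nearly the same on the 4 chromosomes. The median gap between neighbouring footprints was 20 bp on chromosomes 11 and 19 and 21 bp on chromosomes 14 and 3, and 25% of gaps were under 10 bp on each of the pair, against 24.7% and 23.8%. Footprint centres lay on average at 0.295 of the way from site centre to edge on chromosome 11 and at 0.305 on chromosome 19, against 0.279 and 0.287 on chromosomes 14 and 3. Scores listed as -Inf were few, 22 on chromosome 11 and 8 on chromosome 19.

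Along each chromosome, sites were counted in 1 Mb bins by their midpoint, and bins with at least 10 sites were kept, 119 on chromosome 11 and 59 on chromosome 19. Every bin between the first and the last site of either chromosome held a site. Chromosome 11 had 51.0 ± 15.4 sites per bin (SD over bins, range 18 to 104) and chromosome 19 had 61.1 ± 16.3 (range 17 to 100). The median width of a bin's sites ran from 311 to 802.5 bp on chromosome 11 and from 316.5 to 819 bp on chromosome 19. Footprints per site varied far more, from 0 to 11.1 on chromosome 11 with a median of 3.47, and from 0 to 13.3 on chromosome 19 with a median of 3.41. The ratio of observed to predicted footprints was 0.953 ± 0.429 over the bins of chromosome 11 and 1.08 ± 0.412 over those of chromosome 19. It was 0.624 ± 0.445 on chromosome 14 and 0.648 ± 0.389 on chromosome 3. The spread between bins of 1 chromosome was thus of a similar size to the differences between chromosomes.

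Footprints exceeded the prediction in 64 bins of chromosome 11 (53.8%) and 41 of chromosome 19 (69.5%). The background over all 2547 bins of the genome was 36.9%, which includes chromosome X with 5 of 152 bins. The counts on chromosomes 14 and 3 were 26 of 118 and 35 of 157 bins (22% and 22.3%). Chromosome 17 (53.8%) was level with chromosome 11, and chromosomes 5 (52.1%) and 8 (51.6%) came close to it. A ratio above 1.5 was found in 6 bins of each of the pair, 5.04% of those on chromosome 11 and 10.2% of those on chromosome 19, against 3.1% of all bins. By this share chromosomes 5 (8.22%), 6 (8.16%), 8 (7.03%) and 17 (6.45%) lay above chromosome 11. At the other end, a ratio under 0.5 was found in 18 bins of chromosome 11 (15.1%) and 8 of chromosome 19 (13.6%), against a background of 28.2%. Chromosome 14 had 48 such bins (40.7%) and chromosome 3 had 55 (35.0%). These shares were the highest 2 among the autosomes, and those of chromosomes 19 and 11 were the lowest 2. Chromosome 13, whose ratio to prediction was 0.910, was next at 15.4%, close to chromosome 11. The rule chose the chromosomes on the same counts, so nothing further is read from these shares.

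**Figure D2:**
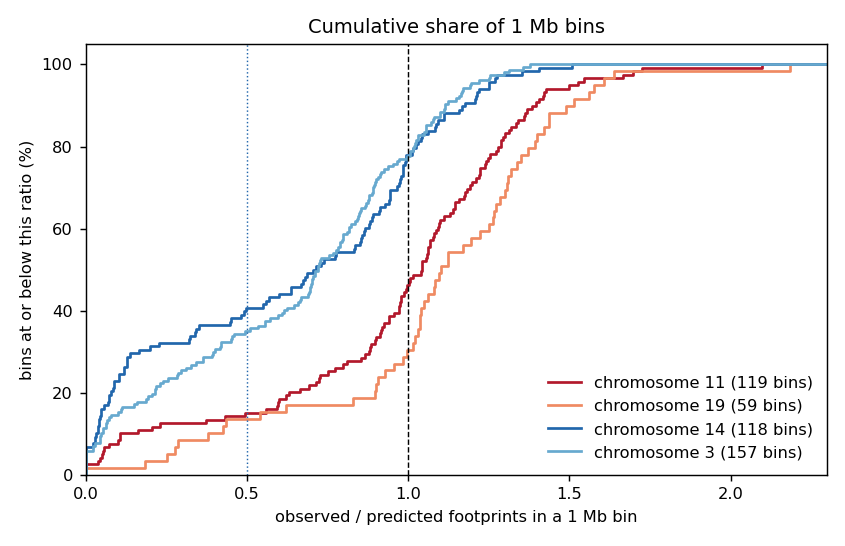
Cumulative share of 1 Mb bins (vertical axis, percent) at or below each ratio of observed to width-predicted footprints (horizontal axis) on chromosomes 11, 19, 14 and 3. At a ratio of 0.5 (dotted) the curves stand at 15.1, 13.6, 40.7 and 35.0%, and the dashed line marks a ratio of 1.

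The footprint-poor bins still held many sites. On chromosome 11, the 18 bins with a ratio under 0.5 had 44.2 ± 10.00 sites each (SD), against 52.3 ± 15.8 in the other 101 bins. On chromosome 19, the 8 such bins had 61.6 ± 16.7 sites and the other 51 had 61.0 ± 16.4. The sites differed in width and in footprints. The 795 sites in the poor bins of chromosome 11 had a median width of 407 bp and held 102 footprints, 0.444% of the chromosome's total, whereas the 5279 others had a median of 635 bp and held 22855. The 493 sites in the poor bins of chromosome 19 had a median of 434 bp and 119 footprints (0.888%), and the 3112 others a median of 604 bp.

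The contrast between poor and other bins was also taken among sites of similar width. Among sites of 600 to 792 bp on chromosome 11, 16 of 80 in the poor bins had a footprint (20%, Wilson interval 12.7 to 30.0%), against 1198 of 1397 in the other bins (85.8%, 83.8 to 87.5%). On chromosome 19 the same shares were 11 of 58 (19%, 10.9 to 30.9%) and 633 of 753 (84.1%, 81.3 to 86.5%). In sites of 793 bp or more they were 10 of 25 against 1589 of 1642 on chromosome 11, and 11 of 20 against 795 of 826 on chromosome 19. The poor bins were defined by footprints relative to width, so a lower share at similar width was fixed by that choice, and the values only give its size. Among sites of 600 to 792 bp in the poor bins, the share was 18.8% on chromosome 14 (Wilson interval 13.8 to 25.1%) and 28.0% on chromosome 3 (22.95 to 33.6%). In the other bins it was 78.3% and 76.5%.

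When the poor bins were left out of every chromosome, with bins of fewer than 10 sites kept, the width-matched ratios came closer to 1 but stayed above it. Chromosome 11 then had 4.02 footprints per site against 3.46 on chromosome 14 (ratio 1.16) and 3.98 against 3.19 on chromosome 3 (ratio 1.25). Chromosome 19 had 4.08 against 3.16 (ratio 1.29) and 4.10 against 2.96 (ratio 1.39). The poor bins were defined by their footprints, so these ratios are a description, and this way of dividing the bins was chosen after the data were seen.

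On chromosome 11, sites beyond 50 Mb (the distal part) held more footprints than those in the first 50 Mb. The first 50 Mb held 2228 sites with a median width of 512.5 bp and 2.50 footprints per site, and 41.3% of them had a footprint. The rest of the chromosome held 3846 sites with a median of 641 bp and 4.52 footprints per site, and 71.1% had a footprint. The ratio to prediction was 0.990 in the first part and 1.20 in the second, which carried 75.7% of the chromosome's footprints. The boundary at 50 Mb was drawn after the data were seen. In steps of 10 Mb the ratio was 1.39 from 0 to 10 Mb, then 0.776, 0.932, 0.830 and 0.837 up to 50 Mb, and between 1.07 and 1.45 in every later step. The first step was uneven. A series of 54 sites in 226 kb at its start held 926 of its 2075 footprints, and its bins from 7, 8 and 9 Mb had ratios of 0.798, 0.599 and 0.102.

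The 18 poor bins of chromosome 11 formed 8 blocks, and 6 of these lay in the first 50 Mb. The longest were 4 Mb each. That from 12 to 16 Mb had 184 sites and 26 footprints where 153 were predicted, and that from 36 to 40 Mb had 187 sites and 12 footprints where 92.5 were predicted. Shorter blocks lay from 9 to 11 Mb (83 sites, 7 footprints), from 24 to 26 Mb (54 sites, 7 footprints), from 27 to 28 Mb (61 sites, 0 footprints) and from 41 to 43 Mb (90 sites, 12 footprints). In the distal part there were 2. The block from 91 to 93 Mb had 84 sites and 4 footprints where 54.7 were predicted, and the bin from 73 to 74 Mb, with 34 where 68.8 were predicted, was only just under the limit of 0.5. The 5 lowest bins were those from 25, 27 and 38 Mb, with 0 footprints in 36, 61 and 47 sites, and those from 13 and 37 Mb, with 1 footprint in 42 and 53 sites.

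**Figure D3:**
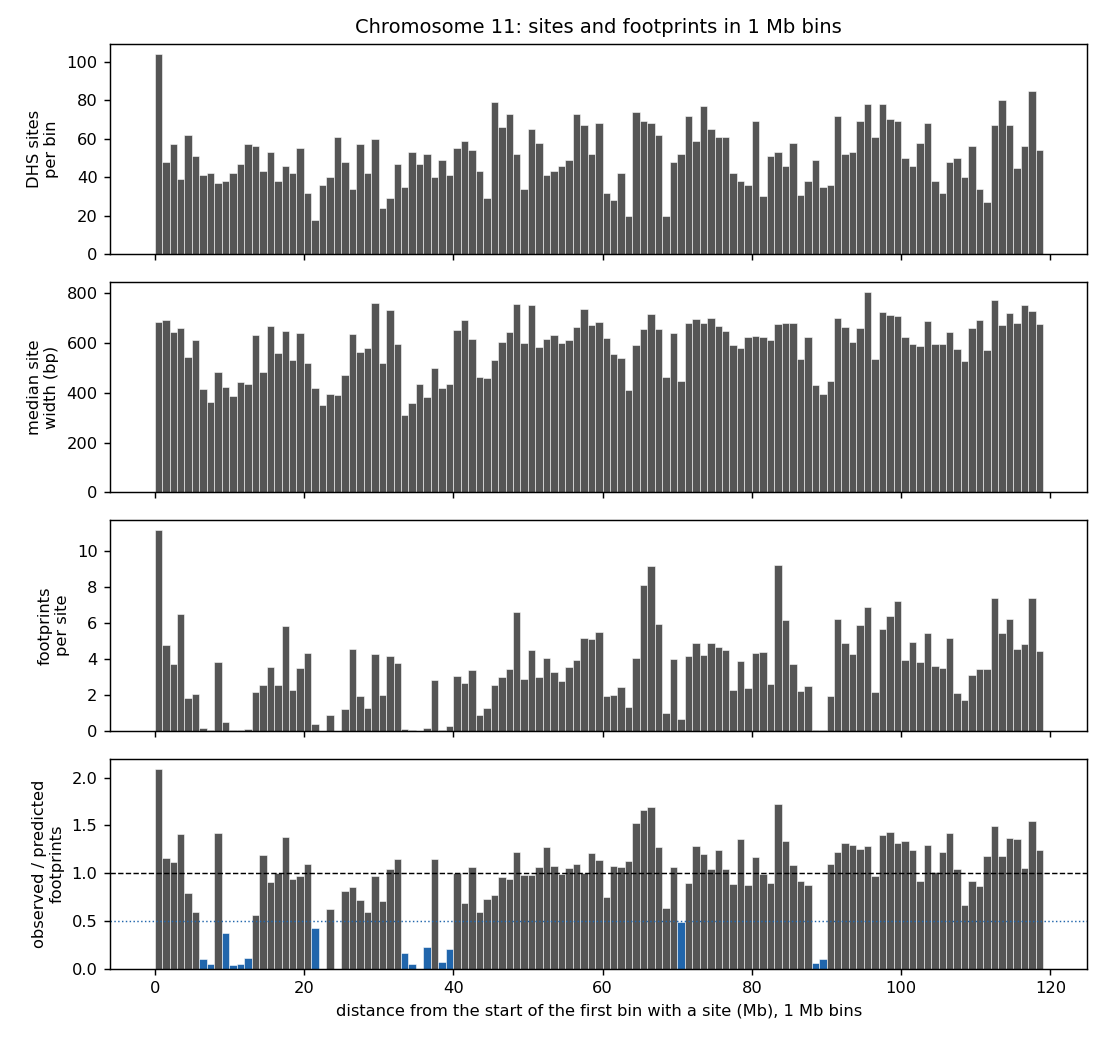
Chromosome 11 in 1 Mb bins, by distance from the start of the first bin with a site (horizontal axis, Mb): number of DHS sites, median site width in bp, footprints per site, and the ratio of observed to width-predicted footprints, each as a bar per bin. Blue bars mark ratios under 0.5 (dotted line) and the dashed line marks 1, and 18 bins are under 0.5, 3 of them at 0.

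The bin with the most sites on chromosome 11 was also the one with the highest ratio. It was the first bin with sites, from 3 to 4 Mb, with 104 sites of median width 683.5 bp, 1158 footprints (11.1 per site) and a ratio of 2.10. Most of these footprints came from an unbroken series of 54 sites at the very start of the chromosome's sites, chr11:3023242-3249269, every one of which had a footprint. This series held 926 footprints in 226 kb, 2.56 times the number predicted from width. The other 50 sites of the bin held 4.64 footprints each, a ratio of 1.22. Without the 54 sites the ratio of the whole chromosome was 1.12 in place of 1.14, about level with the 1.12 of chromosome 8.

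The next highest bins lay in the distal part. The bin from 86 to 87 Mb had 53 sites and 488 footprints (ratio 1.72), and 2 of its sites, next to each other, were the first and the third of the chromosome by number of footprints. The site chr11:86390399-86396657, 6259 bp wide, held 98 footprints, and chr11:86397020-86401404, 4385 bp wide, held 63. The neighbouring bins from 68 to 69 Mb and from 69 to 70 Mb had ratios of 1.67 and 1.70, with 558 and 621 footprints in 69 and 68 sites. They included a series of 34 sites with a footprint each (chr11:69208300-69727857, 384 footprints). The bin from 120 to 121 Mb had 85 sites, the second most, and a ratio of 1.55, and the bin from 116 to 117 Mb with 80 sites, the third most, had 1.18. The remaining sites among the 5 with the most footprints were chr11:3031896-3036098 (64 footprints), chr11:75273302-75277123 (61) and chr11:3025100-3028857 (59). The 5 together held 345 footprints, 1.5% of the chromosome's total, at 14.4 to 16.0 per kb, so the chromosome's high number did not rest on them.

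The widest sites of chromosome 11 by bin were found from 98 to 99 Mb (median 802.5 bp, ratio 1.29), from 115 to 116 Mb (771 bp, ratio 1.5) and from 32 to 33 Mb (758.5 bp, ratio 0.971). The narrowest were found from 36 to 37 Mb (311 bp), from 25 to 26 Mb (350 bp) and from 37 to 38 Mb (360 bp), all among the poor bins. The fewest sites lay from 24 to 25 Mb (18 sites), from 66 to 67 Mb (20) and from 71 to 72 Mb (20), with ratios of 0.431, 1.13 and 0.632. Few sites and few footprints for their width were thus different features of a bin. Across the 119 bins the ratio was related to median width (Spearman rho 0.64, Pearson r 0.75) more closely than to the number of sites (rho 0.35, r 0.37). The ratio of a bin was related to that of the next bin (rho 0.45, r 0.53, 118 pairs). These are descriptions, and all bins share 1 library.

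Chromosome 19 had its highest ratios near its start, and most bins farther on also lay above prediction. Up to 13 Mb it held 739 sites with a median width of 634 bp, 6.35 footprints per site and a ratio of 1.56. These sites carried 35.0% of the chromosome's footprints. The later part held 2866 sites with a median of 554.5 bp, 3.04 footprints per site and a ratio of 1.14. The boundary at 13 Mb was drawn after the data were seen. The ratio was above 1.3 in 8 of the 9 bins from 4 to 13 Mb, the exception being the bin from 11 to 12 Mb with 0.927. Of the 49 bins after 13 Mb, 33 were above prediction, and the longest unbroken series of such bins ran from 21 to 33 Mb and from 40 to 48 Mb.

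The highest bin of chromosome 19, from 5 to 6 Mb, also had the most and the widest sites. It held 100 sites with a median of 819 bp and 1331 footprints, 13.3 per site, where 609.6 were predicted (ratio 2.18), and 95 of its sites had a footprint. The site chr19:5836635-5849786, 13152 bp wide, accounted for 259 of the footprints, where its width class predicted 20.1. Without it the remaining 99 sites still held 10.8 footprints each, a ratio of 1.82. Just before it, a series of 52 neighbouring sites all had a footprint (chr19:5272788-5804145, 685 footprints, 1.80 times the prediction). The adjacent bins from 4 to 5 Mb and from 6 to 7 Mb had ratios of 1.56 and 1.58 with 8.18 and 8.34 footprints per site.

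A further pair of high bins differed in kind. From 46 to 47 Mb, 72 sites of median width 753.5 bp held 581 footprints (ratio 1.64) and 93.1% of sites had a footprint. From 12 to 13 Mb, 62 sites of median width 554.5 bp held 312 (ratio 1.61), but only 51.6% of sites had a footprint. In that bin 2 sites, chr19:12083771-12087266 with 66 and chr19:12868897-12872018 with 56, were the second and the third of the chromosome and held 122 of the 312. The next sites, chr19:44367812-44370787 and chr19:46577093-46580081, held 47 each. The 5 sites together held 475 footprints, 3.54% of the chromosome's total, at 15.7 to 19.7 per kb. Without the 5 leading sites of each of the 4 chromosomes, the ratio of chromosome 19 was 1.23.

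The number of sites and the ratio went apart on chromosome 19 more than on chromosome 11 (rho 0.13, r 0.13 over 59 bins), whereas median width and ratio were related (rho 0.68, r 0.74). These relations were not particular to the pair. On chromosomes 14 and 3, rho was 0.18 and 0.13 for the number of sites and 0.82 and 0.78 for median width. The bins of chromosome 19 with the second and the third most sites, from 8 to 9 Mb (98 sites) and from 33 to 34 Mb (93), had ratios of 1.37 and 0.902. The last bin, from 61 Mb on, had the fewest sites, 17 over the part of it that holds sites, and all 17 had a footprint (ratio 1.3). The next fewest were 29 sites from 25 to 26 Mb (ratio 1.10) and 34 sites from 48 to 49 Mb (ratio 0.426). Wide sites were also found from 4 to 5 Mb (median 789 bp) and from 44 to 45 Mb (762 bp). Narrow sites were found from 48 to 49 Mb (316.5 bp), from 15 to 16 Mb (347 bp) and from 52 to 53 Mb (358 bp).

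**Figure D4:**
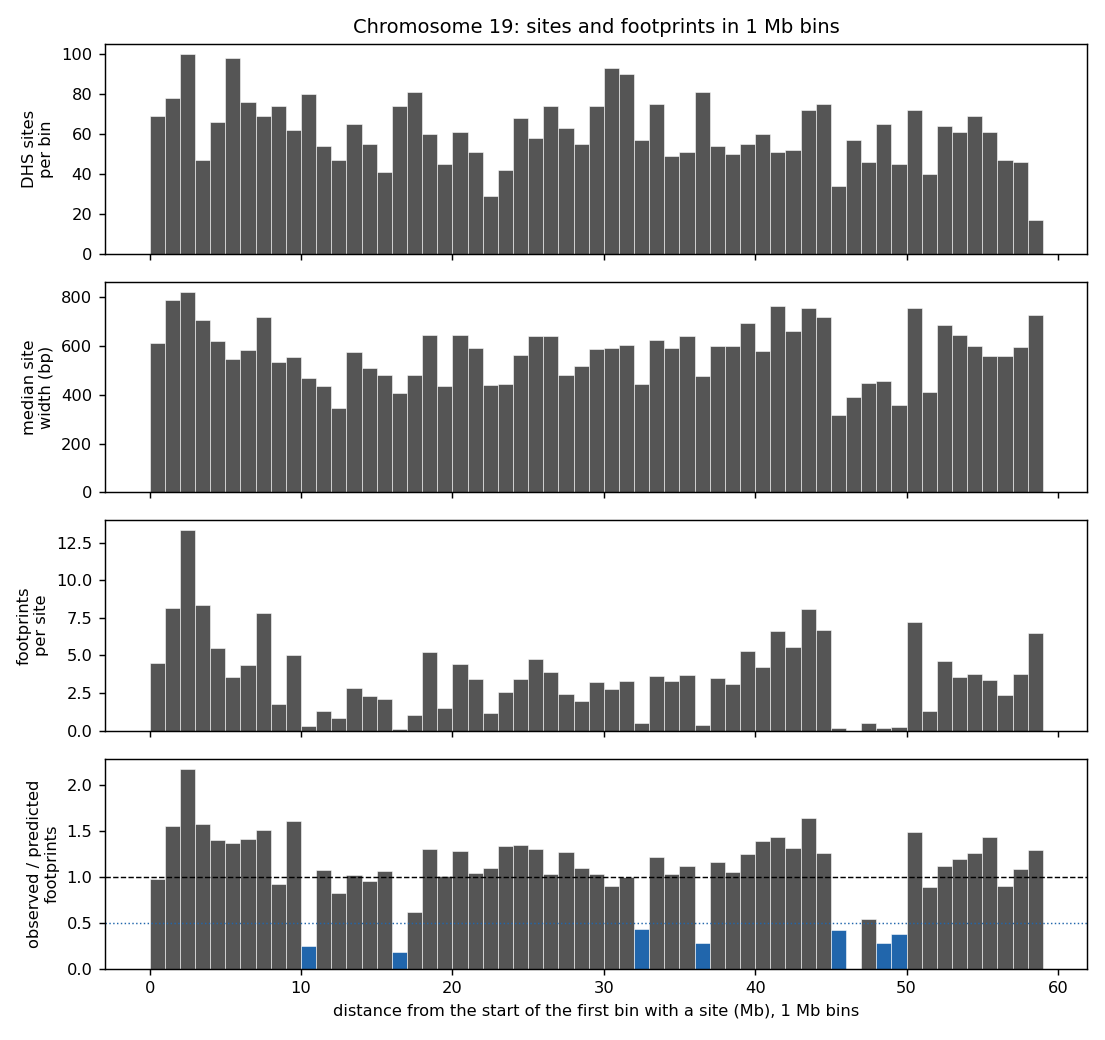
Chromosome 19 in 1 Mb bins, by distance from the start of the first bin with a site (horizontal axis, Mb): number of DHS sites, median site width in bp, footprints per site, and the ratio of observed to width-predicted footprints, each as a bar per bin. Blue bars mark the 8 bins with ratios under 0.5, of which 1 is at 0 and has no visible bar in the lower panels.

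The 8 poor bins of chromosome 19 formed 6 separate blocks. The 4 single bins lay from 13 to 14 Mb (80 sites, 23 footprints where 91.0 were predicted), from 19 to 20 Mb (74 sites, 10 where 53.9), from 35 to 36 Mb (57 sites, 28 where 64.3) and from 39 to 40 Mb (81 sites, 30 where 107.9). Blocks of 2 bins lay from 48 to 50 Mb (91 sites, 6 footprints) and from 51 to 53 Mb (110 sites, 22 footprints). In 3 of the 4 single bins the number of sites, 74 to 81, was above the chromosome's median of 61 per bin. The bin from 13 to 14 Mb lay next to the rich bin from 12 to 13 Mb, with ratios of 0.253 and 1.61, and the bin from 53 to 54 Mb, next to the last poor block, had a ratio of 1.49 and a footprint in 98.6% of its sites. The 5 lowest bins were those from 49 Mb (0 footprints in 57 sites), 19, 13, 39 and 51 Mb, with ratios of 0 to 0.286.

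Footprint-free stretches showed the same pattern without bin boundaries. The longest distance between neighbouring footprints on chromosome 11 was 2216.6 kb, from 37186029 to 39402584, and it contained 109 DHS sites, 49.2 per Mb, close to the 51.1 of the chromosome. The median width of these sites was 393 bp. The next were 1985.7 kb from 24301400 to 26287056 with 59 sites (29.7 per Mb) and 1531.8 kb from 12326789 to 13858626 with 57 sites (37.2 per Mb). On chromosome 19 the longest stretch was 2098.6 kb, from 48006409 to 50105010, with 93 sites of median width 344 bp. Its 44.3 sites per Mb were fewer than the 61.8 of the chromosome. This stretch was followed by 1411.8 kb from 51134987 to 52546827 with 82 sites (58.1 per Mb) and by 925.5 kb from 25728847 to 26654299 with 37 sites (40.0 per Mb). The longest stretch was 2855.2 kb with 151 sites on chromosome 14 (90299046 to 93154256) and 2510.2 kb with 123 sites on chromosome 3 (72850465 to 75360670), so the extremes on the pair were shorter than these but of the same order. Among the 19 autosomes they were ordinary. That of chromosome 11 was the median, that of chromosome 19 ranked 13 by length, and the shortest was 1504.7 kb, on chromosome 6. With the stronger 50% of footprints alone, the longest stretch grew to 3819.1 kb on chromosome 11 and to 2504.6 kb on chromosome 19.

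Counted as series of neighbouring sites, the longest footprint-free run had 109 sites on chromosome 11 and 93 on chromosome 19, both inside the longest stretches just named. The second and the third on chromosome 11 had 71 sites (26862647 to 28017848) and 63 sites (41312855 to 42464131). The widths of the 71 sites predicted 66.4 footprints, and 0 were listed. On chromosome 19 they had 82 sites (51149474 to 52523082) and 42 sites (19332705 to 19857910). A further run of 41 sites on chromosome 19 (19873296 to 20272049) followed directly on the run of 42, in the same part of the chromosome. Runs of 20 or more footprint-free sites held 660 sites of chromosome 11 in 14 runs (10.9%) and 374 of chromosome 19 in 8 runs (10.4%), the lowest 2 shares of the autosomes. Chromosome 13 was next at 11.8%. The share over all sites of the genome was 20.2%, and it was 29.1% on chromosome 14 and 25.2% on chromosome 3.

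**Figure D5:**
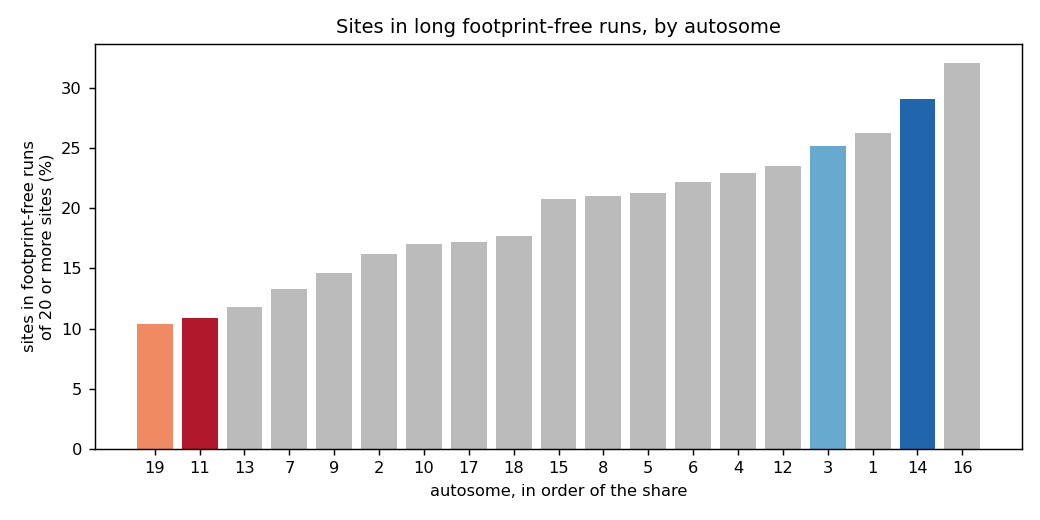
Share of each autosome's DHS sites (vertical axis, percent) that lie in runs of 20 or more neighbouring sites without a footprint, with the autosomes in order of the share. Chromosomes 19 and 11 are the lowest at 10.4 and 10.9%, and chromosomes 3 and 14 (blue) stand at 25.2 and 29.1%.

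By long distances between footprints, a different measure from the runs of sites, the 2 chromosomes parted. Distances of over 500 kb between neighbouring footprints numbered 27 on chromosome 11 and added up to 23.8 Mb, 20.1% of the span between its first and last site, near the autosomal median of 22.3%. On chromosome 19 there were 5, adding up to 5.85 Mb or 10.03%, the lowest share of the autosomes. Chromosomes 14 and 3 had 34.1% and 29.8%. Chromosome 11 thus had a low share of sites in long runs but an ordinary share of its span in such distances. The runs of 20 or more sites covered 14.3 Mb of a 118.8 Mb span on chromosome 11 and 6.64 of 58.3 Mb on chromosome 19. They covered 32.3 of 122.1 Mb on chromosome 14 and 40.3 of 156.5 Mb on chromosome 3. The 2 measures differ in definition, and some stretches of over 500 kb on chromosome 11 held few sites. That from 65620987 to 66771658, 1150.7 kb long, contained 19 sites, 16.5 per Mb, and that from 70858386 to 71758535 contained 17 in 900.2 kb.

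Footprinted sites followed each other more often on this pair than on the other pair. After a site with a footprint, the next site also had one in 75.7% of cases on chromosome 11 and 75.9% on chromosome 19, against 62.4% on chromosome 14 and 63.2% on chromosome 3. Chromosomes 17 and 8 came close to the pair, at 74.3% and 73.2%. After a site without one, the next site had a footprint in 36.7% and 31.7% of cases, against 22.2% and 23.2%. These shares move with the overall share of footprinted sites and were not compared with a random order. Neighbouring sites that both had a footprint lay a median of 8276 bp apart on chromosome 11 and 7806.5 bp on chromosome 19. Neighbours that both lacked one lay 13428 and 9657.5 bp apart. The longest series of footprinted sites on chromosome 19 were 58 sites (chr19:53347379-54019572, 424 footprints) and 57 sites (chr19:46378443-47050489, 472 footprints), each over 672 kb, beside the 52 before the widest site. On chromosomes 14 and 3 the longest were 29 and 36 sites. Such long series were not particular to the pair. By the longest series chromosome 19 ranked 5 and chromosome 11, with 54 sites, ranked 7 among the 19 autosomes, and chromosome 10 had the longest, 193 sites.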

How the data were processed

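Per the labels, the authors pooled 2 further runs with an earlier run of the same DNase library before they called sites and footprints, so there were no replicates. The build is mm9 and HOMER is named, per the submitters' processing notes, while the sources used here do not give versions, steps or the footprint caller. The DHS list has positions and no strength. The deposited footprint list has positions and a column headed p-value, treated here as a score because all values are negative (highest -3.54) and 496 are -Inf. It was used only to rank footprints. The footprint list is named for an FDR of 0.01 and a largest width of 30 bp.

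All 329076 footprints lay inside a site, and counts per site were equal to those of bedtools 2.31.1 in 129028 sites. Positions are printed 1-based. Predicted numbers are means over 50 width classes of all sites. Bins are 1 Mb from position 0, with at least 10 sites. Calls used were a ratio above 1, under 0.5 or above 1.5, and runs of 20 sites or more. Regions named follow a rule of extremes by bin, site, stretch and run. Series of footprinted sites, blocks of bins under 0.5, the boundaries at 50 and 13 Mb and regions named beside these were chosen after their values were seen. The chromosomes and lists were chosen with earlier results of these data known. Shares have 95% Wilson intervals. Steps were tested on simulated data. Gene lists and sequences were not used, as they need mm9 annotation and sequence. Chromosomes of the genes named as background were looked up by symbol in RefSeq's GRCm38.p6 table. Python 3.11.15, numpy 2.4.6, pandas 2.3.3, statsmodels 0.14.6 and matplotlib 3.10.9 were used.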

Additional observations from a re-analysis of the deposited data

How the results depend on the processing

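No paired analysis was possible because all calls were made on 1 pooled library, and the RNA samples stayed out. Each ratio stayed above 1 under every alternative run. A ratio counted as moved when it left its 95% binomial counting interval. The stronger 50% of footprints gave 1.17 for chromosome 11 and 1.33 for chromosome 19 against prediction, and 1.37 (11 over 14), 1.44 (11 over 3), 1.57 (19 over 14) and 1.65 (19 over 3) in width-matched sites. It lengthened the longest footprint-free stretches to 3819117 and 2504595 bp. The wider 50% of sites gave 1.28 (11 over 14) and 1.41 (19 over 14), and sites under 1500 bp gave 1.32 (11 over 3). Leaving out the 5 top sites gave 1.23 for chromosome 19. Leaving out the bin with the highest ratio, added after the data were seen, gave 1.12 and 1.21 against prediction, 1.41 (19 over 14) and 1.43 (19 over 3). Leaving out bins under 0.5, also added, gave 1.07 and 1.19 against prediction, and 1.16, 1.25, 1.29 and 1.39 for the pairs in the same order. The cause of these shifts was not tested. The number of bins above prediction ran from 57 to 69 on chromosome 11 and from 37 to 43 on chromosome 19. Widths were matched, but depth could not be.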
